A study of Mus musculus with 2 samples.

Results

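Classical-like monocytes in blood were 71 of 9415 filtered barcodes, 46 of 4190 in the mutant and 25 of 5225 in the wildtype library. They were chosen by sums of unique molecular identifiers (UMIs, 1 per captured RNA molecule) in each barcode. A barcode needed at least 800 UMIs, at least 200 genes and at most 10% mitochondrial UMIs, and then had to pass 4 gates. These were at least 8 UMIs of Lyz2, Csf1r, Lst1, Ifitm3 and Cst3 together (the myeloid gate), at most 1 of Cd3d, Cd3e and Cd3g, at most 2 of Cd79a, Cd79b and Ms4a1, and at most 1 of Siglech. A member also had more UMIs of Ly6c2, Ccr2, Chil3, F13a1, Vcan and Fn1 together (the classical sum) than of Ace, Treml4, Ear2, Eno3, Fcgr4 and Cd300ld (the non-classical sum). The values of these genes chose the members, so they are described below with no test. The other 140 cells of the same 4 gates, 65 mutant and 75 wildtype, are the cells they are compared with.

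The study profiled blood mononuclear cells of female C57Bl/6 mice of 10 weeks by droplet single-cell RNA sequencing. The mutants carried the Mvk alleles V377I and del91 and the controls were wildtype. For each genotype the blood of 3 mice was pooled into 1 library, after a Ficoll step, red cell lysis and a sort for cells negative for DAPI (a dye of dead cells) and for the red cell antigen Ter119. Each genotype has a single library, so no difference between groups was tested, and genotype, mouse pool and library cannot be told apart. The 95% intervals given in brackets cover counting error only.

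Classical monocytes are the Ly6C-high monocytes of mouse blood. They leave the bone marrow with the help of the chemokine receptor CCR2, circulate briefly, enter inflamed or resting tissue where they can become macrophages or antigen-presenting cells, and otherwise turn in the blood into non-classical, Ly6C-low monocytes that stay on the vessel wall, a step that needs the nuclear receptor Nr4a1. Mevalonate kinase makes phosphomevalonate on the way to sterols and to the isoprenoid tails of small GTPases, and its deficiency in people is an autoinflammatory disease in which monocytes are a known source of interleukin-1.

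The libraries held 14513059 mutant and 15385199 wildtype UMIs. Members were deeper than most filtered barcodes: the mutant members had a median of 3789.5 UMIs (1087 to 10988) and the wildtype members 4026 (2498 to 6873), beside 1968 and 2036 in all filtered barcodes. Their UMIs summed to 181755 and 103909, and these sums limit what follows. CPM is a gene's UMIs per 1000000 UMIs of such a sum, a gene counted as measured with at least 50 UMIs in the 2 sums compared, and called means at least 2-fold apart. Of the filtered barcodes, 28 had the same sequence in both libraries, and none of these was a member in both. No member had a doublet score above 0.2. Mitochondrial UMIs had medians of 2.13% and 2.22% in mutant and wildtype members. Free RNA, read from barcodes with at most 20 UMIs, made up an estimated 7.25% of the mutant and 8.62% of the wildtype members' UMIs.

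The 5 markers of the label are all used by the gates, so their values describe the members and do not check the label. Ly6c2, the gene of the Ly6C antigen, had 175 mutant and 89 wildtype UMIs, seen in 33 of 46 and 19 of 25 members. Ccr2, the receptor for the chemokine CCL2, had 101 mutant and 86 wildtype UMIs in 30 and 19 cells. Chil3, the chitinase-like secreted protein Ym1, had 264 mutant and 126 wildtype UMIs in 23 and 14 cells. F13a1, the A subunit of coagulation factor XIII, had 47 mutant and 45 wildtype UMIs in 22 and 12 cells. Lyz2, the lysozyme of myeloid cells, had 7218 mutant and 4569 wildtype UMIs, in 46 of 46 mutant and 23 of 25 wildtype members. Among the other gate genes, Vcan was all but absent (0 mutant and 1 wildtype UMI) and Fn1 had 126 mutant and 70 wildtype UMIs.

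In cells not chosen by these genes, far fewer had a UMI of them. A member needed at least 1 UMI of the classical sum, so the contrast of members with free RNA is set in part by the rule. It is a description and no test. Among B reference cells (at least 5 UMIs of the B gate genes and at most 1 of the T gate genes), which should lack these genes, 4.89% of 1042 mutant and 7.64% of 942 wildtype cells had a Ly6c2 UMI, against 71.7% and 76% of members. For Ccr2 the B reference shares were 0.576% and 1.06%, for Chil3 0.672% and 0.106%, and for F13a1 0.192% and 0%, where a count of 0 allows up to 0.391%. B reference cells were shallower, with medians of 1619.5 and 1612.5 UMIs. With every cell thinned to 800 UMIs, Ly6c2 was seen in 43.5% and 48% of members and in 2.3% and 2.97% of B reference cells. T cells carry Ly6c2 themselves, in 21.6% and 30.2% of T reference cells, so this gene alone does not mark a monocyte.

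The promoters of 2 of the classical genes and of 2 genes that were low in members are shown to let the gene groups be compared in sequence (RefSeq, build GRCm38.p6, 250 bases before to 50 after the start, all on the minus strand, written 5' to 3'). Ly6c2 (ENSMUSG00000022584, chromosome 15, 75108158 to 75111970, minus strand) and F13a1 (ENSMUSG00000039109, chromosome 13, 36867178 to 37050244, minus strand) belong to the classical sum. Lair1, an inhibitory collagen receptor (ENSMUSG00000055541, chromosome 7, 4003402 to 4063204, minus strand), and Cd300e, an activating receptor of monocytes (ENSMUSG00000048498, chromosome 11, 115051917 to 115062177, minus strand), were lower in members than in the other cells. Gene positions are from the GENCODE annotation of the same build. Capitals mark GAGGAAG, the core bound by the myeloid factor PU.1, and CACCC, the core bound by Kruppel-like factors, on either strand, so that CTTCCTC and GGGTG are the same motifs read backwards.
Ly6c2, chr15:75111922-75112221: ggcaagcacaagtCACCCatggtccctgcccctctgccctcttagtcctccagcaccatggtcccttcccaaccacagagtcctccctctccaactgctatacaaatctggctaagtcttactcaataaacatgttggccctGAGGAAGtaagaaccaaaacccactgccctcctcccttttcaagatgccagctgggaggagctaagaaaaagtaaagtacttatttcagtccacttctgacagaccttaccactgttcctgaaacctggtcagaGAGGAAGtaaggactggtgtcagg
F13a1, chr13:37050195-37050494: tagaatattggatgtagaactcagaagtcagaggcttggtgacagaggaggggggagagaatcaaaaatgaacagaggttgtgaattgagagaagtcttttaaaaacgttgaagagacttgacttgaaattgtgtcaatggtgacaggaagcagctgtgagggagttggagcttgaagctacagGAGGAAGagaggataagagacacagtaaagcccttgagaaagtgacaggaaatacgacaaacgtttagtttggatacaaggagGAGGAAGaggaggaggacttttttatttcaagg
Lair1, chr7:4063155-4063454: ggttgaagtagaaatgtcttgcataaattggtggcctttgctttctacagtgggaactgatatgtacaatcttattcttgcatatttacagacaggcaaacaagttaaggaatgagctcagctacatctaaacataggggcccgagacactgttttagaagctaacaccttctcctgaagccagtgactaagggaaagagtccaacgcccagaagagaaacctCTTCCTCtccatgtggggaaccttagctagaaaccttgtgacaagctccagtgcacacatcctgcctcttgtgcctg
Cd300e, chr11:115061990-115062289: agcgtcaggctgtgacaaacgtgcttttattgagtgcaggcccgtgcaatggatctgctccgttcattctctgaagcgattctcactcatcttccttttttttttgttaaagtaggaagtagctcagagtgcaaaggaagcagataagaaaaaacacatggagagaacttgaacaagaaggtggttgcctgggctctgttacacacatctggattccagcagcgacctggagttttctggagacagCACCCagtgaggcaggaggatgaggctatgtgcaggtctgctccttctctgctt
GAGGAAG occurred in 4 of 7 promoters of the classical genes and 3 of 7 of the non-classical genes. Some genes held more than 1 start, and Fn1 was not listed. The classical matches were all at starts of Ly6c2 and F13a1, the classical genes printed above, and Ccr2, Chil3 and Vcan had none. The windows of the 2 listed Ly6c2 starts overlap and hold the same GAGGAAG sites, so these sites were counted in both. The motif occurred in 2 of 10 promoters of the genes first named below as higher in members and in 6 of 7 of those first named as lower. It was in 13.6% of all 32851 promoters. Promoters were listed for 9 of the 10 higher and 7 of the 10 lower genes, and the 6 include the near-identical Bcl2a1b and Bcl2a1d. CACCC occurred in 3 of 7, 7 of 7, 8 of 10 and 2 of 7 of these promoters, beside 57.5% of all. TTGCAA, a form of the C/EBP site, was in none of the 31 and in 6.23% of all. A further form, TTGCGCA, was in 1 of them, at H2-DMa, and in 2.02% of all. Each motif was counted on its own, whether or not it overlapped another. A match describes these letters only.

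The markers did not sit in the same cells, and the members were not of 1 kind. Sets were defined after the cells were seen: at least 10 UMIs of Fn1, at least 10 of Retnla, at least 50 of Pf4 and Ppbp together, or fewer than 25 of Lyz2. A barcode that met more than 1 of these was placed by Pf4 and Ppbp first, then Retnla, then Fn1, then Lyz2. The sets left 31 mutant and 19 wildtype barcodes, called the remaining members below. Every one of these 50 held Plac8, a small cysteine-rich protein of myeloid and lymphoid cells, at 5 to 51 UMIs per mutant and 7 to 40 per wildtype cell, and Lyz2, whose level defines the set in part, at 35 to 339 and 54 to 295. Ly6c2 was seen in 28 of the 31 and 17 of the 19, and all of the Chil3 UMIs of both libraries lay in these cells. Hp, the haemoglobin-binding plasma protein haptoglobin, had 89 of its 89 mutant and 70 of its 71 wildtype UMIs there. C1qa, C1qb and C1qc, the chains of complement C1q made by tissue macrophages, stood at 0 in all 50.

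The Fn1-rich barcodes, 3 mutant and 2 wildtype, carried another set of genes. Fn1, the matrix protein fibronectin, was at 17 to 32 UMIs in the mutant and 12 to 33 in the wildtype cells, and C1qb at 6 to 77 and 20 to 22. Alox15, a lipoxygenase known from resident peritoneal macrophages, was at 0 to 24 and 25 to 34, and Prg4, a lubricating proteoglycan, at 0 to 18 and 22 to 44. Both genes stood at 0 in every other member. Ly6c2, Ccr2 and Chil3 were at 0 in these 5 cells, and their classical sum was Fn1 apart from 1 F13a1 UMI.

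The Retnla-rich barcodes, 3 mutant and 1 wildtype, held the secreted resistin-like molecule alpha at 104 to 218 UMIs in the mutant cells and 42 in the wildtype cell. They also held Ccr2 at 2 to 15 and 9 UMIs, and Cd74, the invariant chain of MHC class II, at 37 to 231 and 319. Chil3 was at 0 in all 4, and Plac8 and Ly6c2 had 2 UMIs and 1 UMI in all. The Lyz2-poor barcodes, 6 mutant and 3 wildtype, had at most 21 Lyz2 UMIs. Flt3, a cytokine receptor of dendritic cells and progenitors, was seen in 5 of the 6 and 3 of the 3, Cd209a, a lectin of dendritic-like cells, in 5 and 3, and Bst2 stood at 8 to 10 UMIs in each of the 3 wildtype cells. The 3 Pf4- and Ppbp-rich barcodes, all mutant, held 33 to 50 UMIs of the platelet chemokine Pf4 and 8 to 10 of Lyz2, and each passed the split with a classical sum of 1 UMI. The remaining members were not of 1 kind either: 1 mutant cell had a classical sum of 1, with 0 UMIs of Ly6c2, Ccr2, Chil3 and Hp, 6 of Cd209a and 2 of Flt3. A further mutant cell held 14 Cd209a and 206 Cd74 UMIs, and another 3 Cd209a UMIs and 1 Flt3 UMI. Since the rule used Ly6c2, Ccr2, Chil3, F13a1 and Lyz2, their presence is no check of the label. Among members, Plac8 and Hp, which the rule did not use, lay mostly in the remaining ones. The Lyz2-poor barcodes held Plac8 too, at 13, 8 and 21 UMIs in the wildtype cells and 0 to 16 in the mutant cells. Plac8 thus did not set the remaining members apart from these. The Lyz2-poor cells also held Ccr2, at 1 to 5 UMIs in the mutant and 0 to 4 in the wildtype library. Their Ly6c2 stood at 0 to 4 and 0 to 10 UMIs. A Plac8 UMI was also seen in 78.5% of mutant and 72% of wildtype other cells, and in 58% and 54.9% of B reference cells. Plac8 alone thus does not mark a classical monocyte. The leading genes of the Fn1-rich, Retnla-rich, Lyz2-poor and Pf4- and Ppbp-rich barcodes went against the label. Results below are given for all members and again for the remaining ones.

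**Figure D1:**
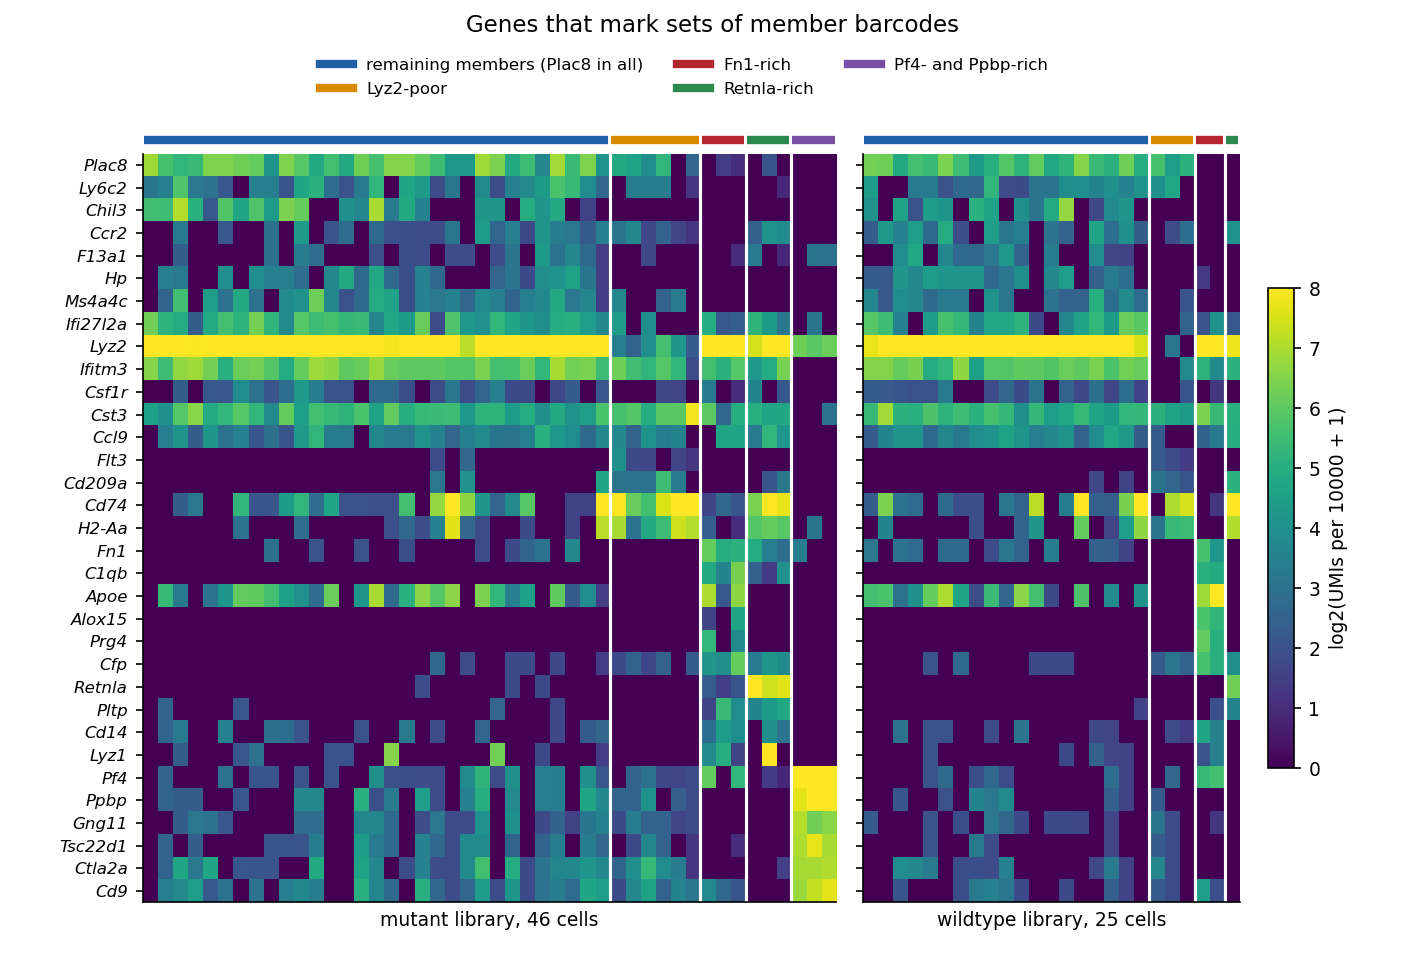
Levels of 33 genes in each member, as log2 of UMIs per 10000 UMIs of the cell plus 1, with 1 column per cell, cells grouped by set (coloured bars) and the mutant library on the left. Plac8 is seen in all remaining members and Ly6c2, Chil3 and Hp in most of them. The Fn1-rich and Retnla-rich blocks hold some genes that are at or near 0 there, such as C1qb, Alox15, Prg4 and Retnla. Pf4 and Ppbp are lower but not absent in the remaining members, with Pf4 seen in 19 of 31 mutant and 7 of 19 wildtype cells.

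Cells lay on both sides close to the split. The classical sum of members ran from 1 to 59 UMIs in the mutant (median 11.5) and from 4 to 52 in the wildtype library (median 14), and their non-classical sum from 0 to 6 and 0 to 5. Members ahead by 1 to 3 UMIs numbered 11 mutant and 1 wildtype, and 7 and 1 of them were ahead by 1. Just outside, 20 mutant and 20 wildtype cells were level or behind by at most 3 UMIs, of which 11 and 5 were level. On the myeloid gate, 3 mutant members and 1 wildtype member had 8 to 11 UMIs, the lowest 8 and 9, against medians of 176 and 208.

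**Figure D2:**
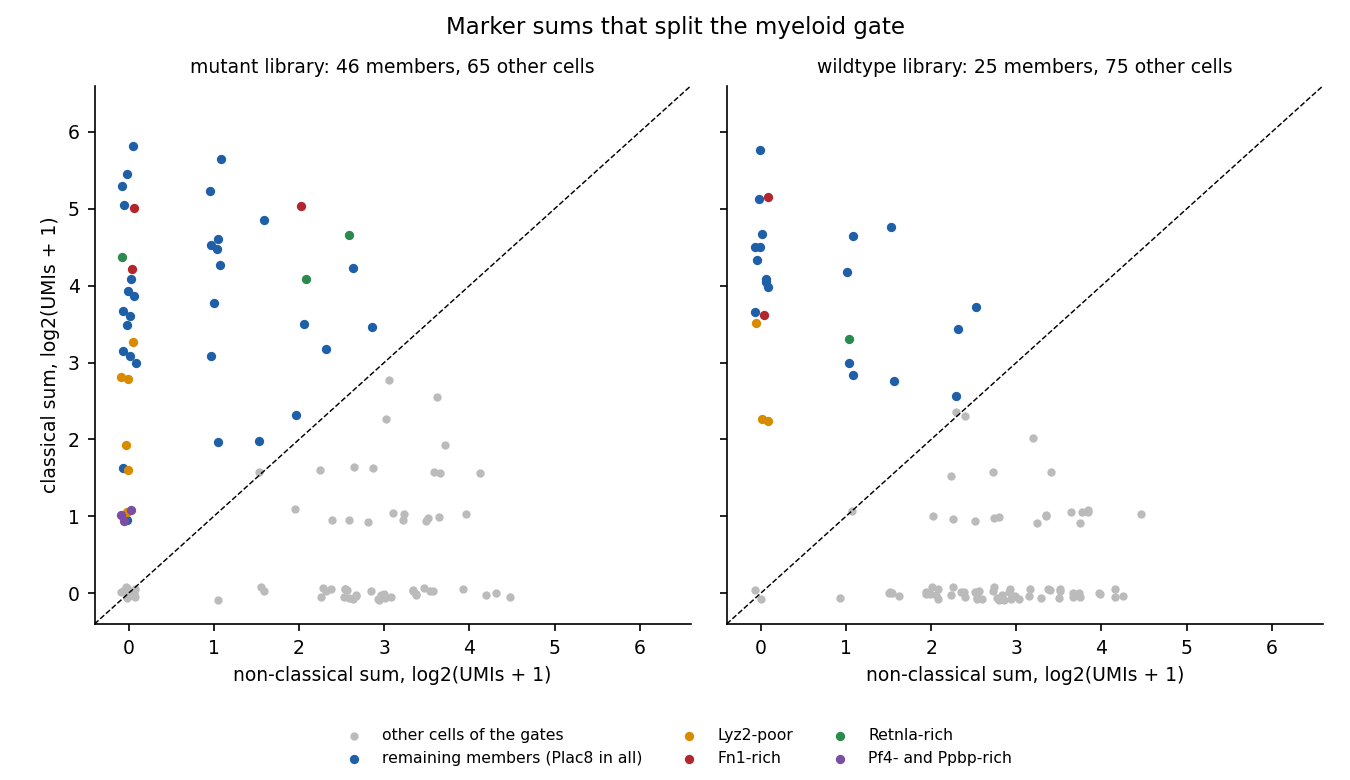
Classical against non-classical marker sum of each cell of the 4 gates, both as log2 of UMIs plus 1 with a small seeded jitter, by library. Members lie above the dashed line of equal sums and are coloured by set, other cells are grey, and the Pf4- and Ppbp-rich cells sit at a classical sum of 1 UMI.

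Against the other cells of the 4 gates, members differed in the same direction in both libraries for 72 genes. Of 806 genes measured in both, 33 (4.09%) were at least 2-fold higher and 39 (4.84%) at least 2-fold lower in members. In single libraries 70 (6.86%) and 70 (6.86%) of 1020 mutant genes, and 59 (6.98%) and 84 (9.94%) of 845 wildtype genes, were higher and lower. The gates read the same cells, so this contrast is a description. The other cells were marked by Ear2, a ribonuclease of the eosinophil family, at 901 and 1066 CPM in the mutant and wildtype library against 60.5 and 96.2 in members, and by Eno3, a muscle-type enolase, at 569 and 656 against 38.5 and 28.9. Ace, the angiotensin-converting enzyme, stood at 461 and 331 against 33 and 38.5.

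Outside the gate genes, Cfp, Wfdc17 and Capg had the largest higher ratios by the naming rule. Wfdc17, a whey acidic protein family member, was at 2371 and 1790.0 CPM in mutant and wildtype members and at 285 and 189.9 in the other cells, ratios of 8.33 (6.06 to 11.7) and 9.42 (6.42 to 14.3), the second of which was 14.9 for remaining members against other cells ahead by at least 3 UMIs. It was seen in 40 of 46 and 20 of 25 members. The chemokine gene Ccl9 stood at 1271 and 1203 against 156 and 312 CPM, ratios of 8.15 and 3.85. Cfp, the complement protein properdin, had ratios of 10.2 and 23.9, but its UMIs lay mostly in the Fn1-rich and Retnla-rich barcodes. The remaining members held only 7 mutant and 6 wildtype Cfp UMIs, and there the ratios were 0.892 and 2.81 against other cells whose non-classical sum was ahead by at least 3 UMIs.

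The other genes named as higher have varied roles. The actin-capping protein gene Capg had ratios of 5.43 and 14.1, the intermediate filament gene Vim 5.68 and 3.51, the LIM protein gene Crip1 4.48 and 4.5 and the scaffold gene Ahnak 3.68 and 3.07 in the mutant and wildtype library. For the peptide-loading chains of MHC class II the ratios were 5.4 and 5.37 (H2-DMb1) and 4.39 and 6.04 (H2-DMa), while the class II genes Cd74 (1.66 and 1.54) and H2-Aa (1.8 and 1.78) were under 2. Trf, the iron carrier transferrin, had 3.92 and 7.33, the lysosomal cholesterol-binding protein gene Npc2 3.24 and 3.0, Ly86, a partner of a Toll-like receptor relative, 3.05 and 3.14, and the surface proteins Ms4a4c, Bst2 and Evi2a 3.42 and 3.14, 3.11 and 4.71 and 2.87 and 4.12. In the remaining members against cells ahead by at least 3 non-classical UMIs, each of these genes kept a ratio above 2 in both libraries except Cd74 and H2-Aa. Ratios that moved by over 1.5 times there were, in mutant cells, H2-DMb1 (3.51), Evi2a (4.84), and in wildtype cells Trf (3.87), Bst2 (2.01), Cd74 (0.879) and H2-Aa (1.01).

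On the lower side, Cd300e had no UMI in 71 members and 50 mutant and 73 wildtype UMIs in the other cells, a ratio of at most 0.0487 and 0.0646, counting the members' 0 as 3 UMIs. S100a8, a calcium-binding alarmin of neutrophils, had 1 mutant and 0 wildtype UMIs in members and 93 and 267 in the other cells. Those UMIs lay in only 2 of 65 mutant and 4 of 75 wildtype other cells, so they describe a few barcodes. The whole neutrophil list had 16 and 12 UMIs in members against 157 and 579. Pglyrp1, a peptidoglycan-binding granule protein, had ratios of 0.101 and 0.0486. Lower too were the adhesion and signalling genes Itgal (0.189 and 0.227), which is the integrin LFA-1 chain, Spn (0.251 and 0.186), which is CD43, Adgre4 (0.206 and 0.188), Lair1 (0.178 and 0.167) and Abi3 (0.225 and 0.182). The anti-apoptotic genes Bcl2a1b and Bcl2a1d had 0.171 and 0.10 and 0.18 and 0.232, and as near-identical copies their separate counts are uncertain. Remaining members had 0.0637 and 0.0441 and 0.115 and 0.106. Pou2f2, the transcription factor Oct2, had 0.265 and 0.283, the G protein subunit gene Gngt2 0.304 and 0.20, and Ly6i, Hfe and Agpat4 0.154 and 0.137, 0.271 and 0.252 and 0.271 and 0.11.

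**Figure D3:**
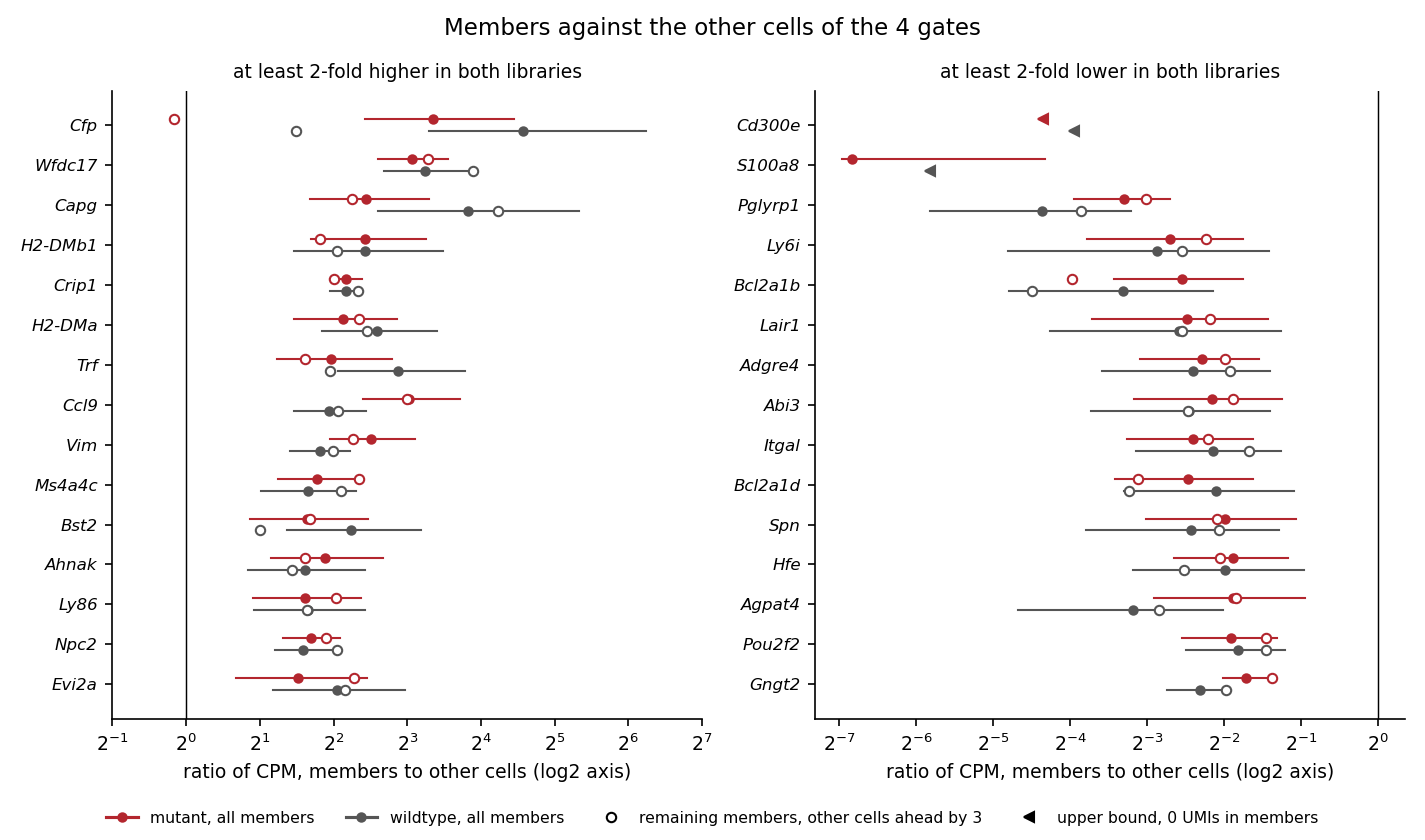
Ratio of CPM in members to CPM in the other cells of the 4 gates (log2 axis) for the 15 higher and 15 lower named genes, by library (mutant red, wildtype grey). Filled points are all members with their 95% counting intervals, open points the remaining members against other cells ahead by at least 3 UMIs, and arrows upper bounds where members held 0 UMIs. Filled points of both libraries lie on the same side of 1 for each gene, because the naming rule chose the genes that way. Open points lie on that side too, with the open mutant point of Cfp, at 0.892, as the exception.

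Of other classical monocyte genes, 12 of 18 measured in the mutant and 10 of 13 in the wildtype library were higher in members and 0 were lower, with median log2 ratios of 1.20 and 1.48 beside 0.04 and -0.01 over all genes. Plac8 had ratios of 1.47 and 2.06, Hp 2.13 and 2.79, the glutathione transferase Mgst1 2.3 and 2.82, the lipopolysaccharide co-receptor Cd14 6.13 and 13.7 and the interferon-induced Ifi27l2a 1.74 and 3.3. Of the Cd14 UMIs, 44 of 68 mutant and 23 of 35 wildtype lay in Fn1-rich and Retnla-rich barcodes, and the remaining members against other cells ahead by at least 3 UMIs had 2.72 and 4.69, while Hp had 3.36 and 4.37 there and Ifi27l2a 2.26 and 4.3. Of other non-classical genes, 11 of 15 and 14 of 18 were lower and 0 were higher, with medians of -1.71 and -2.05. Among them Nr4a1, the nuclear receptor needed by non-classical monocytes, had 0.359 and 0.575, and the fractalkine receptor Cx3cr1 0.517 and 0.205. The rule did not use these genes, but it used the cells they were counted in.

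Other lists were split in part. Of all measured genes 6.86% and 6.98% were higher and 6.86% and 9.94% lower, in the mutant and wildtype library. For S100, annexin and galectin genes 5 of 11 and 6 of 12 were higher, among them S100a10 (2.21 and 7.44), S100a6 (2.18 and 2.14) and the galectin Lgals1 (2.61 and 2.73). For remaining members these were 3.81 and 10.5, 2.37 and 3.32 and 2.59 and 1.67, so Lgals1 was under 2-fold in the wildtype library. For trafficking receptors and integrins 1 of 10 and 1 of 9 were higher (Ccr2, a gate gene) and 3 and 4 were lower. Within the lysosome list 2 of 15 and 2 of 13 were higher, Npc2 and the protease gene Ctsc (2.0 and 2.56), and the protease gene Ctsb stood at 0.548 and 0.463. For the receptors of immunoglobulin G, Fcgr3 stood at 2.46 and 2.52 and the common signalling chain Fcer1g at 0.693 and 0.56. The mutant other cells held 34552 CPM of the erythroid list and 6058 of the platelet list, against 294 and 135 in the wildtype other cells. The part of this RNA in the other ratios was not tested.

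Members made up more of the mutant than of the wildtype library. They were 1.1% (0.805 to 1.46) of mutant and 0.478% (0.31 to 0.706) of wildtype filtered barcodes, a ratio of 2.29 (1.38 to 3.9). Remaining members alone were 0.74% (0.503 to 1.05) and 0.364% (0.219 to 0.567), a ratio of 2.03 (1.11 to 3.81). Asking members to be ahead by at least 3 UMIs gave 1.87 (1.09 to 3.28), and thinning every barcode to 800 UMIs before the gates gave 2.55 (1.48 to 4.53). Within the 4 gates, members were 41.4% (32.2 to 51.2) of the 111 mutant cells and 25% (16.9 to 34.7) of the 100 wildtype cells. Shares are parts of a total that other cells fill, and a difference between pools of 3 mice cannot be told apart from one between genotypes.

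Between the genotypes, few genes of the members were 2-fold apart. Of 871 measured genes 24 (2.76%) were at least 2-fold higher and 10 (1.15%) at least 2-fold lower in the mutant library. In the remaining members these were 14 (2.46%) and 7 (1.23%) of 568, and in the other cells of the gates 28 (2.93%) and 12 (1.25%) of 957. The median log2 ratio over all genes was -0.04 in members, -0.04 in remaining members and -0.11 in the other cells. The shares and medians over all genes are the background for the counts and medians of the gene lists below. Mvk had 0 mutant and 2 wildtype UMIs in members, where 0 counts allow up to 16.5 CPM, so no difference was detectable at this depth. The labels do not place the del91 deletion against the 3' end that is counted, so the Mvk level checks nothing.

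The classical markers did not all lie on 1 side of 1. Ly6c2 stood at 963 mutant and 857 wildtype CPM, a mutant to wildtype ratio of 1.12 (0.866 to 1.47), and at 1493 and 1036 CPM in the remaining members, a ratio of 1.44 (1.09 to 1.92). Cell by cell it ran from 0 to 54.2 UMIs per 10000 with a median of 10.0 in the remaining mutant cells, and from 0 to 37.2 UMIs per 10000 with a median of 8.81 in the wildtype ones. The ranges overlapped, with 4 mutant cells above the highest wildtype cell. Free RNA held Ly6c2 at 162 and 321 CPM, and its near-identical neighbour Ly6c1 may share its reads. Chil3 stood at 1453 mutant and 1213 wildtype CPM, ratios of 1.2 (0.965 to 1.49) in all and 1.41 (1.13 to 1.75) in remaining members. Its cells spread more widely still, from 0 to 133 UMIs per 10000 in the mutant and from 0 to 105 in the wildtype library, with medians of 18 and 14.9.

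Ccr2 and F13a1 lay the other way. Ccr2 stood at 556 mutant and 828 wildtype CPM, a ratio of 0.671 (0.499 to 0.906) in all and 0.569 (0.398 to 0.811) in remaining members. The remaining mutant cells ran from 0 to 20.6 UMIs per 10000 with a median of 3.09, the wildtype cells from 0 to 29.1 UMIs per 10000 with a median of 7.2. A Ccr2 UMI was seen in 21 of 31 and 16 of 19 of them, and in 9 of each after thinning to 800 UMIs. F13a1 stood at 259 mutant and 433 wildtype CPM, ratios of 0.597 (0.388 to 0.919) and 0.567 (0.358 to 0.893), and was seen in 16 of 31 and 12 of 19 remaining cells. When each gene was left out of the sum that chose the members, the ratios were 1.26 for Ly6c2, 0.985 for Chil3, 0.751 for Ccr2 and 0.58 for F13a1. Lyz2 stood at 39713 and 43971 CPM, ratios of 0.903 (0.87 to 0.937) and 0.962 (0.921 to 1.0). Fn1 had 1.03 (0.762 to 1.4) in all members and 0.483 (0.248 to 0.922) in the remaining ones, on 18 and 25 UMIs.

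**Figure D4:**
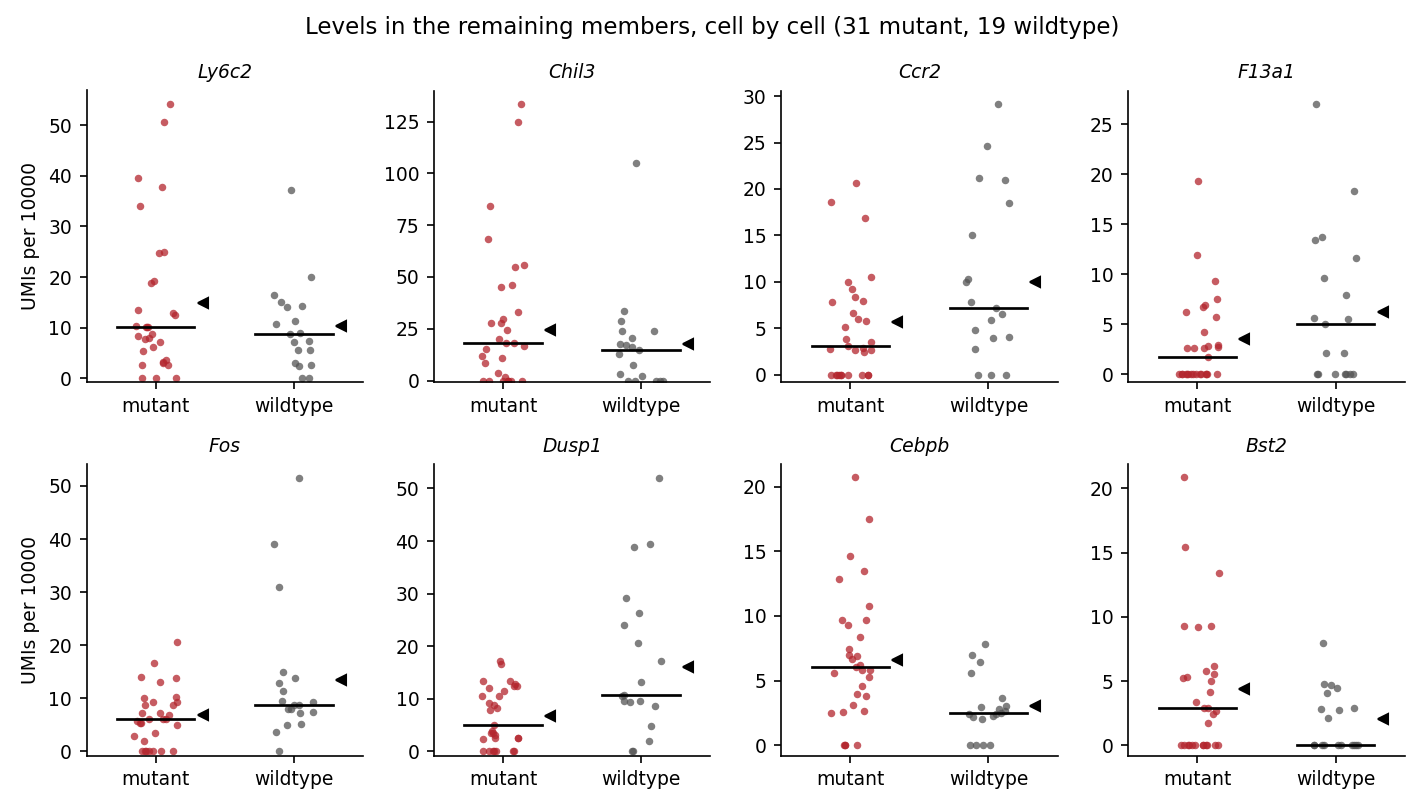
Level of 8 genes in each remaining member, in UMIs per 10000 UMIs of the cell, for 31 mutant and 19 wildtype cells. Points are cells, which are not replicates, lines are medians over cells and triangles the level of the summed cells. The libraries overlap for each gene, with the higher median in the mutant library for Ly6c2, Chil3, Cebpb and Bst2 and in the wildtype library for Ccr2, F13a1, Fos and Dusp1.

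Of other classical monocyte genes 18 were measured, 1 was at least 2-fold higher (Lyz1) and 0 lower. Of all 871 measured genes 2.76% were higher and 1.15% lower. The list had a median log2 ratio of 0.07. Lyz1 encodes a second lysozyme, best known from Paneth cells of the gut, and had 254 mutant and 15 wildtype UMIs (1397 and 144 CPM), a ratio of 9.68 (5.76 to 17.6). A single Retnla-rich mutant cell held 159 of the 254 UMIs. In the remaining members 70 UMIs in 9 mutant cells stood beside 6 in 5 wildtype cells, which is a ratio of 7.83 (3.42 to 22.1). Of the 70, 32 and 30 lay in 2 cells, and the other 29 mutant cells held 8 UMIs. In the other cells of the gates 56 UMIs stood beside 10, a ratio of 6.19 (3.13 to 13.6). Lyz1 is near-identical to Lyz2, and the sources used here do not say how shared reads were counted. Plac8 (0.962, and 1.17 in remaining members), Hp (0.717, 0.853), Mgst1 (0.935, 1.2) and Cd14 (1.11, 1.61) were each under 2-fold. Of the other non-classical genes, 6 were measured and 1 was called, Cebpb, with a median of -0.26.

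Cebpb, a transcription factor of myeloid cells and of the acute phase response, was higher in the mutant members. It stood at 556 mutant and 259.8 wildtype CPM, a ratio of 2.14 (1.39 to 3.4) in all and 2.17 (1.33 to 3.67) in remaining members. In the remaining cells it ran from 0 to 20.7 UMIs per 10000 with a median of 6.03 in the mutant and from 0 to 7.85 UMIs per 10000 with a median of 2.48 in the wildtype library, with UMIs in 27 of 31 and 15 of 19 cells. All 19 wildtype cells lay within the range of the mutant cells, and 10 mutant cells stood above the highest of them. Free RNA held 40.5 and 39.1 CPM, and in the other cells of the gates the ratio was 1.75 (1.31 to 2.34). Among 10 measured transcription factors 2 were higher, Cebpb and Id2 (2.02, 1.3 to 3.26, but 1.03 in remaining members), and 0 lower. Of all 871 measured genes 2.76% were higher and 1.15% lower. PU.1 itself (Spi1) stood at 0.73 (0.535 to 0.999), Klf4 at 0.627 (0.402 to 0.982) and 1.07 in remaining members, and Irf8 at 0.872 and 1.65.

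Immediate early genes, which cells switch on within minutes of a stimulus, held 2 genes that were at least 2-fold lower in the mutant members, Dusp1 and Fos. The list of 20 summed to 7483 mutant and 11135 wildtype CPM in members and to 7983 and 10499 in the remaining ones, against 8443 and 9062 in the other cells and 7606 and 8976 in free RNA. Of 13 measured, 2 were at least 2-fold lower and 0 higher, beside 1.15% lower and 2.76% higher of all 871 measured genes. The median log2 ratio of the list was -0.44 in all, -0.39 in remaining members and -0.06 in the other cells. Dusp1, a phosphatase that turns off MAP kinases, stood at 682 mutant and 1799.7 wildtype CPM, a ratio of 0.379 (0.30 to 0.478) and of 0.422 (0.311 to 0.571) in remaining members. The remaining mutant cells ran from 0 to 17.3 UMIs per 10000 with a median of 5.01, and the wildtype cells from 0 to 52 UMIs per 10000 with a median of 10.8. Fos, a subunit of AP-1, stood at 583 mutant and 1174 wildtype CPM, ratios of 0.497 (0.379 to 0.65) and 0.512 (0.373 to 0.70).

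For Fos 3 and for Dusp1 7 remaining wildtype cells stood above the highest mutant cell. The highest wildtype cell reached 51.5 UMIs per 10000 for Fos, against 20.6 in the mutant, while the medians were 6.19 and 8.81. Without the highest cell of each library the ratios were 0.532 for Fos and 0.427 for Dusp1. Junb stood at 0.669 (0.542 to 0.825) and 0.764 in remaining members, Nr4a1 at 0.551 (0.372 to 0.816) and 0.641, and Atf3 at 0.663 and 0.654. Jun (0.896), Ier2 (1.04), Ier5 (0.945) and Btg2 (0.891) lay near 1. In the other cells of the gates the ratios were 0.719 (0.554 to 0.928) for Dusp1, 0.957 (0.628 to 1.45) for Fos and 0.882 for Nr4a1. Whether members and other cells differ in this was not tested.

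Interferon-stimulated genes held no called gene in all members and 1 in the remaining ones. The 24 genes of the list in the files summed to 6586 mutant and 5688 wildtype CPM, and to 9503 and 7335 in the remaining ones. The 7 measured had a median log2 ratio of 0.32. In the remaining members 1 of 6 was called, Bst2, the antiviral surface protein tetherin, with a median of 0.40. Of all 568 genes measured in remaining members 2.46% were higher and 1.23% lower. Bst2 stood at 436 and 207 CPM there, a ratio of 2.1 (1.16 to 4.05), and was seen in 19 of 31 and 9 of 19 cells. In all members its ratio was 0.877 (0.594 to 1.31) and the 3 wildtype Lyz2-poor barcodes held 27 of its 45 wildtype UMIs. Ms4a4c stood at 1.39 (1.04 to 1.89) and 1.57 (1.16 to 2.15), Ifi27l2a at 1.02 and 1.07, and the nucleotide hydrolase gene Samhd1 at 1.36 (1.01 to 1.85) and 1.28. Isg15 and Irf7 had 38 and 60 UMIs in both libraries together, with ratios of 1.1 (0.542 to 2.34) and 1.14 (0.653 to 2.06).

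MHC class II genes held no called gene. In all members the list had a median log2 ratio of 0.58 over 7 measured genes and summed to 21953 mutant and 15629 wildtype CPM. In the remaining members the median was 0.02 and the sums 10514 and 10374. Cd74 stood at 1.31 (1.21 to 1.42) in all and 0.941 (0.83 to 1.07) in remaining members, and H2-Aa at 1.5 and 1.13. The Lyz2-poor barcodes alone held 1002 of 2069 mutant and 159 of 904 wildtype Cd74 UMIs. Cd209a had 23 mutant and 2 wildtype UMIs in remaining members, 14 of the 23 in 1 cell. Free RNA carried this list at 12466 and 9759.6 CPM.

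The pathway that the mutation hits was too scarce to read. None of the 30 genes of sterol synthesis and control was measured, and together they summed to 137 mutant and 135 wildtype UMIs, 754 mutant and 1299 wildtype CPM, or 751 and 912 CPM in remaining members. Fdps, farnesyl diphosphate synthase, had 20 mutant and 19 wildtype UMIs, a ratio of 0.602 (0.305 to 1.19) in all and 2.35 (0.738 to 9.8) in remaining members. Small GTPases, which carry isoprenoid tails, and the prenylation enzymes gave 11 measured genes of 23, of which 0 were called, with a median log2 ratio of -0.01. Rhoa stood at 0.787 (0.59 to 1.05), Rac1 at 0.754 (0.541 to 1.05), Rac2 at 0.814, Cdc42 at 0.97 and Rap1b at 1.3 (0.995 to 1.71).

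Inflammasome and interleukin genes were scarce as well. Of 19 genes 1 was measured, Pycard, the adaptor ASC, at 0.987 (0.672 to 1.47) in all and 0.582 (0.33 to 1.02) in remaining members, and the list summed to 1172 mutant and 1097 wildtype CPM. Casp1, the protease that cuts interleukin-1, had 30 mutant and 9 wildtype UMIs, a ratio of 1.91 (0.882 to 4.56), and Pstpip1, a partner of pyrin, 17 mutant and 3 wildtype UMIs, a ratio of 3.24 (0.937 to 17.3). Il1b had 4 mutant and 8 wildtype UMIs. Mefv, the pyrin gene, had 4 mutant UMIs and 1 wildtype UMI. Of the 18 inflammatory mediators and NF-kB feedback genes 2 were measured. Nfkbia, the inhibitor IkB alpha, stood at 0.871 (0.66 to 1.15). Cxcl2, a neutrophil-attracting chemokine, had 16 mutant and 91 wildtype UMIs, a ratio of 0.101 (0.0551 to 0.172), but 82 of the 91 wildtype UMIs lay in 1 Fn1-rich cell and the remaining members held 0 in both libraries. Tnfrsf1a and Il6ra, receptors for TNF and interleukin-6, stood at 1.39 (0.726 to 2.8) and 1.43 (0.663 to 3.33).

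The lysosome, redox and S100 lists held no called gene. Of 13 measured lysosome genes 0 were called, with a median log2 ratio of 0.08: Ctss stood at 1.0 (0.864 to 1.17), Psap at 0.94, Npc2 at 0.941 and Ctsb at 1.06. Of 13 measured genes of the oxidative burst and redox list 0 were called, with a median of -0.01, and the oxidase subunits Cybb and Cyba stood at 0.844 (0.637 to 1.12) and 1.08 (0.907 to 1.28). Of 10 S100, annexin and galectin genes 0 were called (median -0.06). The measured gene farthest from 1 in that list was Vim, which encodes the filament protein vimentin, at 1155 mutant and 1636 wildtype CPM, a ratio of 0.706 (0.574 to 0.87) in members and 0.704 (0.545 to 0.911) in remaining members, and 0.437 (0.276 to 0.674) in the other cells. The signalling chains Fcer1g and Tyrobp stood at 0.949 (0.83 to 1.09) and 0.911 (0.807 to 1.03), and Fcgr1, the high-affinity receptor for immunoglobulin G, had 26 mutant and 6 wildtype UMIs, a ratio of 2.48 (0.997 to 7.36).

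Secreted and surface proteins were mostly under 2-fold apart. Of 6 measured antimicrobial and granule genes 2 were higher (Lyz1 and Retnla) and 1 lower (Slpi), beside 2.76% and 1.15% of all 871 genes. The median log2 ratio of the list was 0.06. In the remaining members 1 of 4 was higher, Lyz1, and 0 lower. Coagulation and matrix genes gave 0 called of 5 (median 0.04), where Thbs1, the adhesive protein thrombospondin, stood at 1.05 and Plaur, the urokinase receptor, at 1.13. Trafficking receptors and integrins gave 0 of 7 (median 0.06, and -0.41 in remaining members). There the selectin ligand gene Selplg stood at 1.41 and 1.18, the hyaluronan receptor gene Cd44 at 0.833 and 0.625, and the integrin gene Itgb2 at 1.05 and 1.4.

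Pattern recognition receptors gave 0 called of 4 (median -0.10), with the lectin genes Clec4a3 at 0.884 and Clec4a1 at 0.994. Fc receptors and complement gave 0 of 8 (median -0.08), with Fcgr3 at 1.08 and Fcgr2b, the inhibitory Fc receptor, at 1.17. Cell cycle genes gave 0 of 3, with H2afz, a histone variant, at 0.679 (0.541 to 0.853) and 0.671 in remaining members, and Hmgb2, a chromatin protein, at 0.611 and 0.652. Top2a and Cdk1, which dividing cells need, had 0 UMIs in both libraries.

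Other genes far from 1 were traced to the barcodes that held them. Retnla had 528 mutant and 42 wildtype UMIs, a ratio of 7.19 (5.24 to 10.1), with 519 of 528 and 42 of 42 UMIs in the 4 Retnla-rich cells. Remaining members held 3 and 0. Saa3, an acute phase serum amyloid protein, had 125 of its 137 mutant UMIs in 1 cell. Prg4 (0.26) and Alox15 (0.242) were seen in Fn1-rich cells only, and 78 of the 89 wildtype UMIs of the protease inhibitor gene Slpi lay in 1 of them. Apoe, the lipid carrier apolipoprotein E, stood at 0.625 (0.551 to 0.709) in all and 1.09 (0.918 to 1.29) in remaining members. Pltp, the phospholipid transfer protein, had 88 mutant and 9 wildtype UMIs, of which 5 and 1 lay in remaining members. Cd81, a tetraspanin, stood at 5.39 (2.48 to 13.9) and 5.7 (1.35 to 50.9), with 36 of 66 mutant UMIs in Retnla-rich cells.

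Actb, the cytoskeletal actin, was at 10899 mutant and 5582 wildtype CPM, a ratio of 1.95 (1.78 to 2.15) in all, 1.97 (1.76 to 2.22) in remaining members and 1.87 (1.73 to 2.02) in the other cells of the gates. Cell by cell the medians of the remaining members were close, 46.1 and 42.9 UMIs per 10000, and the highest cells reached 538 in the mutant library and 233 in the wildtype library. Of the remaining mutant cells 5 stood above the highest wildtype cell, and they held 107 to 271 Actb UMIs each, of 1177 in all. Free RNA held Actb at 20750.3 and 17882 CPM. Lower genes included Cstb, the protease inhibitor cystatin B (0.494, 0.298 to 0.816), Ywhaz, a 14-3-3 adaptor (0.494, 0.298 to 0.816), and Vasp, an actin regulator (0.457, 0.256 to 0.809), on 54 to 69 UMIs each. In remaining members they stood at 0.46, 0.47 and 0.369.

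**Figure D5:**
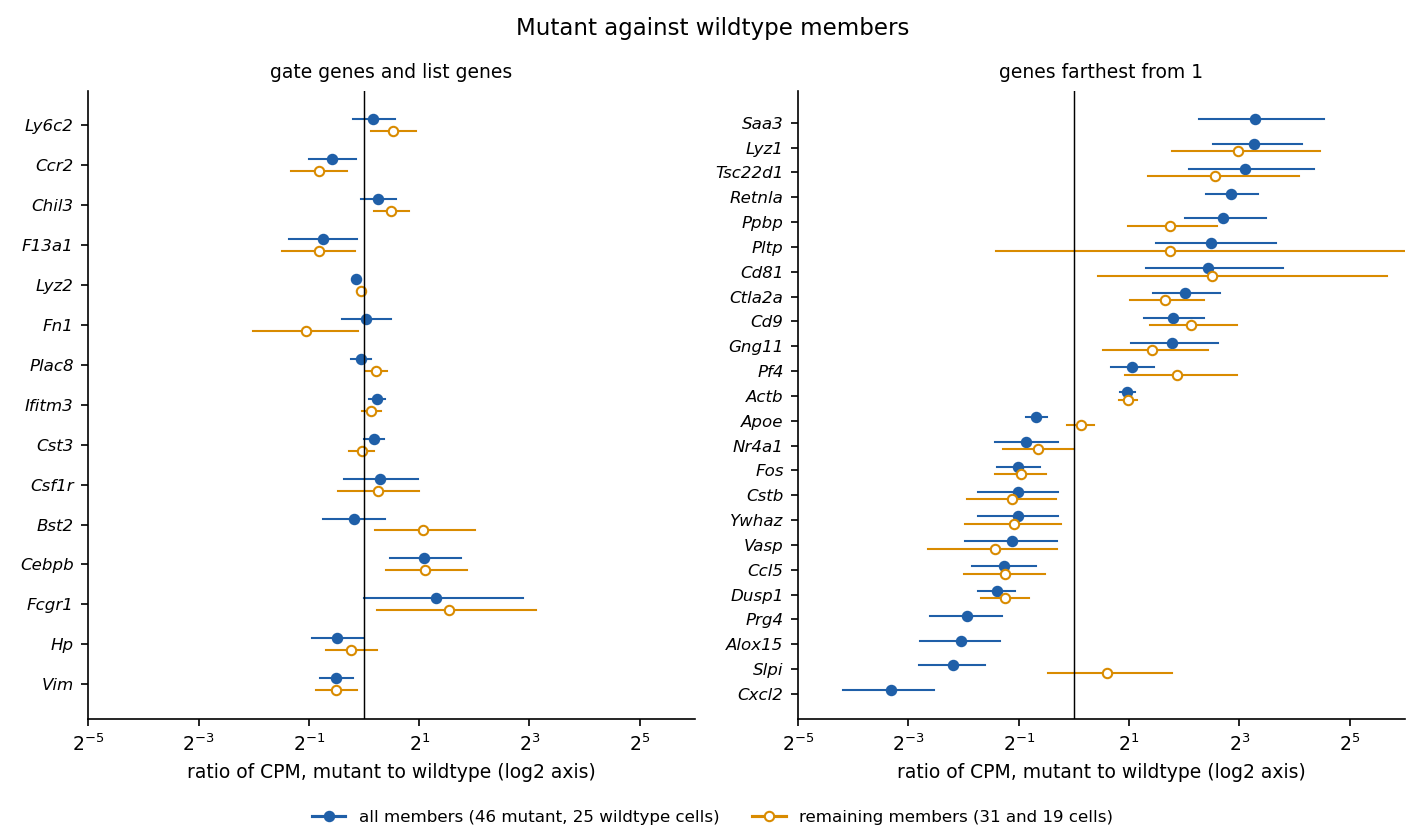
Ratio of CPM, mutant to wildtype (log2 axis), with 95% counting intervals, in all members (filled) and in remaining members (open), for gate and list genes on the left and for the 24 genes farthest from 1 on the right. A point is missing where a library held 0 UMIs and some intervals run past the axis. Tsc22d1, Cd9, Cebpb, Dusp1 and Fos keep their side of 1 in both, while Apoe, Slpi, Bst2, Fn1, Plac8 and Cst3 are among those that change sides.

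Platelet and red cell RNA was higher in the mutant library. Of the 9 platelet genes 3 were measured and 3 were higher, beside 2.76% of all 871 measured genes. The 3 were Pf4 (2.08, 1.6 to 2.74), Ppbp (6.51, 4.02 to 11.2) and Gng11 (3.43, 2.04 to 6.12). The list summed to 3928 mutant and 1184 wildtype CPM in all and to 2309 and 718 CPM in remaining members, where the same 3 stood at 3.66, 3.36 and 2.68. Per cell it ran from 0 to 1027 UMIs per 10000 in mutant members (median 11.5) and from 0 to 49.5 in wildtype members (median 4.97), and 1 of its genes was at 0 in each library. The 3 Pf4- and Ppbp-rich barcodes held 60 of 212 mutant UMIs of the tetraspanin gene Cd9, 47 of 198 of Ctla2a and 58 of 121 of the leucine zipper gene Tsc22d1. Cd9 stood at 3.46 (2.41 to 5.1) and 4.38 (2.62 to 7.79) in remaining members, Ctla2a at 4.04 (2.71 to 6.24) and 3.16 (2.02 to 5.14), and Tsc22d1 at 8.65 (4.25 to 20.5) and 5.93 (2.55 to 16.9). In free RNA these 3 stood at 314 and 211, 359 and 195 and 106 and 34.7 CPM. The part of platelet RNA in them was not tested.

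Of the 8 erythroid genes 3 were measured and 3 were higher, beside 2.76% of all 871 measured genes. The 3 included Hba-a1 (4.94, 2.64 to 10.2) and Hbb-bs (8.38, 5.32 to 13.9). The list summed to 2679 mutant and 346 wildtype CPM in members and to 50768 and 3632 CPM in free RNA. With free RNA subtracted no mutant UMIs of Hba-a1 or Hbb-bs were left. The share subtracted from mutant members was 7.25%, the median of 3 estimates, and the estimate from haemoglobin itself was 5.22%. The remainder of 0 thus follows from the calculation and tests nothing. Counts of single haemoglobin genes, which are near-identical, are uncertain. Cytotoxic genes were lower in the mutant library in members and in free RNA. The list summed to 424 mutant and 1001 wildtype CPM in members and to 3277 and 10787 CPM in free RNA. Ccl5 stood at 0.417 (0.279 to 0.62), and at 1.09 with free RNA subtracted. The 1.09 depends on the share subtracted, for which the 3 wildtype estimates ran from 6.07% to 9.49%, and tests nothing. T cell and B cell lists had 37 and 28, and 28 and 13 UMIs in mutant and wildtype members, and the basophil and mast cell list 3 and 0. The tissue macrophage list had 285 and 164 UMIs, of which 14 and 11 lay in remaining members, and the dendritic list 156 and 80, of which 75 and 19 did.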

How the data were processed

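Single-cell libraries of blood mononuclear cells, 1 per genotype and each a pool of 3 mice, were read with a 3' droplet assay. The authors deposited whole-number UMI counts per gene and barcode, unfiltered and not normalized. The submitters' processing notes name Cell Ranger 2.1.1 and build mm10. How reads shared by near-identical genes were counted is not given in the sources used here. From these counts, barcodes were filtered and gated as stated, and UMIs were summed per library and class. Python 3.11.15, numpy 2.4.6, scipy 1.17.1, pandas 2.3.3 and scanpy 1.11.5 were used. Intervals are exact at 95% (Poisson, Clopper-Pearson, conditional for ratios). A count of 0 was bounded by 3 counts. Scrublet (expected rate 0.8% per 1000 cells) was run as an alternative, and doublets were not removed. The calculation of ratios and intervals was checked on simulated counts.

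Named genes were the gate genes, the 15 higher and 15 lower in both libraries against the other cells, the 12 higher and 12 lower between genotypes, and members of the gene lists. Genes named outside this rule were chosen after their values were seen. The members and lists were chosen with earlier results of these data known. The barcode sets, and the alternatives built on them or on free RNA, were chosen after seeing the data.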

Additional observations from a re-analysis of the deposited data

How the results depend on the processing

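No paired analysis was possible because each genotype had 1 library, and for the same reason no replicate could be left out. The mutant share moved to 0.740% of filtered barcodes for remaining members, and all 14 alternatives of the 2 share ratios kept them above 1. Between genotypes, genes at least 2-fold higher numbered 105 and lower 72 with at least 20 UMIs (59.3% of calls higher, against 70.6%), 14 and 5 with at least 100 UMIs, and higher 14 in remaining members. Against the other cells with at least 20 and 100 UMIs, 209 and 35 mutant genes were higher and 207 and 21 lower (62.5% higher at 100 UMIs, against 50%), and 147 and 25 wildtype genes higher and 229 and 28 lower. Of 1912 alternative values of 160 genotype ratios 1819 held within the counting interval, 86 moved and 7 reversed. Reversed means that a ratio at least 2-fold from 1 (or a median log2 ratio at least 1 from 0) came to lie on the other side. Smaller ratios that crossed 1, such as Apoe at 1.09 and Bst2 at 2.1 in remaining members, were not counted as reversed. The reversed ratios were Ccl5 at 1.09, Hba-a1 at 0 and Hbb-bs at 0 with free RNA subtracted, Cxcl2 at 1.95 without Fn1-rich barcodes, and Slpi at 1.53 in remaining members, 1.32 without Fn1-rich barcodes and 1.10 without the highest cell of each library. The Cfp ratio to the other cells reversed to 0.892 in remaining mutant members, and the median log2 ratio of the inflammatory mediators to 0.30 in remaining members. That list had 2 measured genes in all members and only 1 in remaining members, so the second median is the value of 1 gene. The haemoglobin values of 0 follow from the share of free RNA subtracted, and the Ccl5 value depends on it, as given above. Apart from this and the barcodes each setting leaves out, the cause was not tested. Sums of 181755 and 103909 UMIs leave genes below 50 UMIs, all sterol genes among them, with wide intervals.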
